A study of Mus musculus with 2 samples.

Results

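Immunoglobulin gene segments are the V, D, J and C pieces from which B cells assemble antibody genes, and their chromatin was described here in mouse T helper 2 (Th2) cells, CD4 T cells that secrete Il4, Il5 and Il13. The members were all genes whose type starts with IG_ in the GENCODE M21 annotation of GRCm38 (mm10), 432 of 55413 annotated genes on the main chromosomes. They comprised 380 V, 22 D, 14 J and 14 C segments and 2 of another IG_ type, and 164 of the 432 were pseudogenes. The heavy chain locus (chr12:113254830-116010093) held 233 of them, the kappa locus (chr6:67555497-70726966) 182 and the lambda locus (chr16:19061618-19260859) 12. The other 5, Gm17472 and Gm20730 among them, lie outside these loci, and none had an open region within 1 kb in either replicate.

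The assay was ATAC-seq of primary Th2 cells of strain C57BL/6NJ: a transposase cuts and tags DNA where chromatin is accessible. The labels give 1 group of 2 biological replicates, from different biosamples of the same donor record, with sex and age not given and with no control or other condition. No source used here ties them to separate animals, and the spread between the replicates may be only technical. Reads were not analysed here: each replicate is the authors' own list of open regions with a summit and a fold enrichment, and the depth of the libraries is unknown. The lists held 51557 regions for replicate 1 and 60891 for replicate 2. Wherever regions of both lists overlapped they were merged, which gave 44058 shared regions. The region names carry the words ASTARR, insert and masked, which no source used here explains, so fold enrichments could be those of a cloned library, and what was masked is not known.

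In a developing B cell, a V, a D and a J segment are joined at the heavy chain locus, and a V and a J segment at the kappa or lambda locus. The recombinase cuts at recombination signals, which flank each V, D and J segment and consist of a conserved heptamer and nonamer with a spacer between them. The joined V segment is transcribed from its own promoter, whose conserved octamer is bound by Oct factors. At the heavy chain and kappa loci, enhancers lie in the intron between the J segments and the nearest C gene and 3′ of the C genes. Tandem switch repeats 5′ of each heavy chain C gene, other than that of Ighd, serve class switching. T cell receptor genes are assembled from segments of the same kind in developing T cells, which are also known to join D to J segments at the heavy chain locus. Mature T cells carry receptor genes already joined and do not make antibodies.

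Few of the segments were open. Of the 432, 8 had a shared region overlapping them or within 1 kb, which is 1.85% (95% exact Clopper-Pearson interval 0.803% to 3.62%), against 36.2% of genes of all other types by the same measure. The 8 were the heavy chain V segments Ighv14-2, Ighv14-3, Ighv1-12, Ighv1-47, Ighv8-4 and Ighv1-58 and the constant genes Ighm and Igkc. Replicate 1 alone gave 11 segments with a region and replicate 2 alone gave 15. Intervals here cover counting error only, and segments of a locus are not replicates of a condition. With 1 group, no difference between samples could be tested, and every comparison below is a description.

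Sequences at the summits of 4 of the 6 V segment regions are shown first, because most summits at V segments lay near the 3′ end, where the recombination signal starts. The 4 are those whose window held the patterns in capitals. Those not printed are Ighv8-4, whose summits lay on the promoter side, and Ighv14-3. The summits of Ighv14-3 lay 128 bp apart, and its window, centred on replicate 2's summit, lay past the heptamer. Each is 200 bp of GRCm38 on the coding strand, centred on the mean of both replicates' summits, or on replicate 2's summit for Ighv1-12, whose summits lay 370 bp apart. Capitals mark the signal heptamer CACAGTG and, in the spacer after it, ACCACA, which is the complement of the Runx core TGTGGT.
Ighv1-47 (chr12:114991036-114991235, minus strand): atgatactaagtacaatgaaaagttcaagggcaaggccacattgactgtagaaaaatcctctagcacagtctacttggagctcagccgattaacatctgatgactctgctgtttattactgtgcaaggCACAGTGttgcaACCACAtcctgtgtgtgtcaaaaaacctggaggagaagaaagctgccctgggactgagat
Ighv1-58 (chr12:115312038-115312237, minus strand): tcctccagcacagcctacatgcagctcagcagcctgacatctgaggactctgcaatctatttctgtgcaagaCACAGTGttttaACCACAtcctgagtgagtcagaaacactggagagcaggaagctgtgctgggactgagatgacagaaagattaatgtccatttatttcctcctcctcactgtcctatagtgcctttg
Ighv14-2 (chr12:113994296-113994495, minus strand): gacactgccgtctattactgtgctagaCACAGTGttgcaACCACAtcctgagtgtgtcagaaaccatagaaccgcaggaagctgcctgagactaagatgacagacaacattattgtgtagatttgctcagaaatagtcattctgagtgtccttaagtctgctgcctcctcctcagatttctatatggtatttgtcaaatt
Ighv1-12 (chr12:114615688-114615887, minus strand): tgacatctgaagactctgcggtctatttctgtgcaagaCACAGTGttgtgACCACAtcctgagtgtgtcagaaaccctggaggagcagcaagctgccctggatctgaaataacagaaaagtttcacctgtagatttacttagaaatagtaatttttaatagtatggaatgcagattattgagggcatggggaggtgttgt

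The intron sequences between the J and C segments are shown because open regions there did not all lie at the landmarks for which the introns are known. The first line is 200 bp at the summit of the widest region of the loci, on the strand of Ighm, with the switch pentamer GAGCT or its complement in capitals. The next is the octamer ATGCAAAT, here as its complement, and E-box of the heavy chain intron enhancer, which no open region of either replicate covered. The last is the kappa intron at replicate 2's summit, with the kappa B site GGACTTTCC and the E-box CAGGTG in capitals.
Switch repeats 5′ of Ighm (chr12:113425410-113425609, minus strand): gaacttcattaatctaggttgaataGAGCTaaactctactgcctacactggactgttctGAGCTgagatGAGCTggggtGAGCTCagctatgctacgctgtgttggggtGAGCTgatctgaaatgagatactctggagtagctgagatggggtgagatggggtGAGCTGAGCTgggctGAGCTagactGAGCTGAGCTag
Enhancer octamer of the heavy chain intron (chr12:113427364-113427563, minus strand): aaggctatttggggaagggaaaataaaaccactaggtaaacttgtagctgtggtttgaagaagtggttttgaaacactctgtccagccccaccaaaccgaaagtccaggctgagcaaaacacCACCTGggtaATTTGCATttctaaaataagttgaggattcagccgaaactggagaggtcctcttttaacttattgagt
Kappa intron 5′ of Igkc (chr6:70725715-70725914, plus strand): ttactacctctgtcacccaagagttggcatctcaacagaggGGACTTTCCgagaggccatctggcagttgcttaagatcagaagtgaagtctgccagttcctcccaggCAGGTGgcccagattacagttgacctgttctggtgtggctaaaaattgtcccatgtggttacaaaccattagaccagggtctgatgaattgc

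At the kappa V segments no region was found in either replicate, and the strongest regions of that locus lay between the V and J segments. The sequences at those summits are shown with matches to the CTCF pattern, up to 1 mismatch, in capitals.
Kappa interval, 3′ of Igkv3-1 (chr6:70709406-70709605, plus strand): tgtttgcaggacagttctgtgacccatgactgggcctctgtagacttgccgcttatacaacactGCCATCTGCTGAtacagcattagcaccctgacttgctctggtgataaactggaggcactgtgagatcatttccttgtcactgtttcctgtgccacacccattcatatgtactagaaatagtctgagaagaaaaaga
Kappa interval, 5′ of Igkj1 (chr6:70714379-70714578, plus strand): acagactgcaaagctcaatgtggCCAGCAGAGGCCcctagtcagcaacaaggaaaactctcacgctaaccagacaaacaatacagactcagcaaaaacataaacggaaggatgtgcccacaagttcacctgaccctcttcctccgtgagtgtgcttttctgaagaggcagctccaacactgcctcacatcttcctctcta

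V segments were open only at the heavy chain locus in these lists. Of its 196 V segments 6 had a shared region (3.06%, interval 1.13% to 6.54%), and all 6 were among the 115 that are not pseudogenes. Of the 176 kappa V segments 0 had one, which allows a share of up to 1.70%, and of the 3 lambda V segments also 0. Over all members, those outside the loci included, 0 of 158 pseudogene V segments had a shared region, which allows up to 1.90%. Among T cell receptor V segments the count was 15 of 178, or 8.43%. It was 12 of 35, or 34.3%, at the beta chain locus and 2 of 128, or 1.56%, at the alpha chain locus. At the delta chain locus it was 0 of 6. Loci were told apart by the start of the gene symbol, and the 1 V segment with a symbol in Trg had none. Gamma chain V segments with symbols in Tcrg were not counted by locus. Of these, Tcrg-V7 had overlapping regions in both replicates, with folds of 4.99 in replicate 1 and 5.10 in replicate 2.

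The J and D segments were not in shared regions. Immunoglobulin J segments gave 0 of 14, which allows up to 21.4%, against 27 of 80 T cell receptor J segments. Immunoglobulin D segments gave 0 of 22, which allows up to 13.6%, against 2 of 4. The T cell receptor counts came from the alpha and beta chain loci. Delta chain J segments gave 0 of 2, gamma chain J segments 0 of 4 and delta chain D segments 0 of 2. Of the immunoglobulin C segments 2 of 14 had a shared region, against 2 of 8 of the T cell receptor. Over all classes, T cell receptor segments stood at 46 of 270, or 17.0%, above the immunoglobulin segments and below other genes. Counted at the 5′ end of the gene, the immunoglobulin share was again 8 of 432, against 29.5% of genes of all other types and 55.9% of protein-coding genes.

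**Figure D1:**
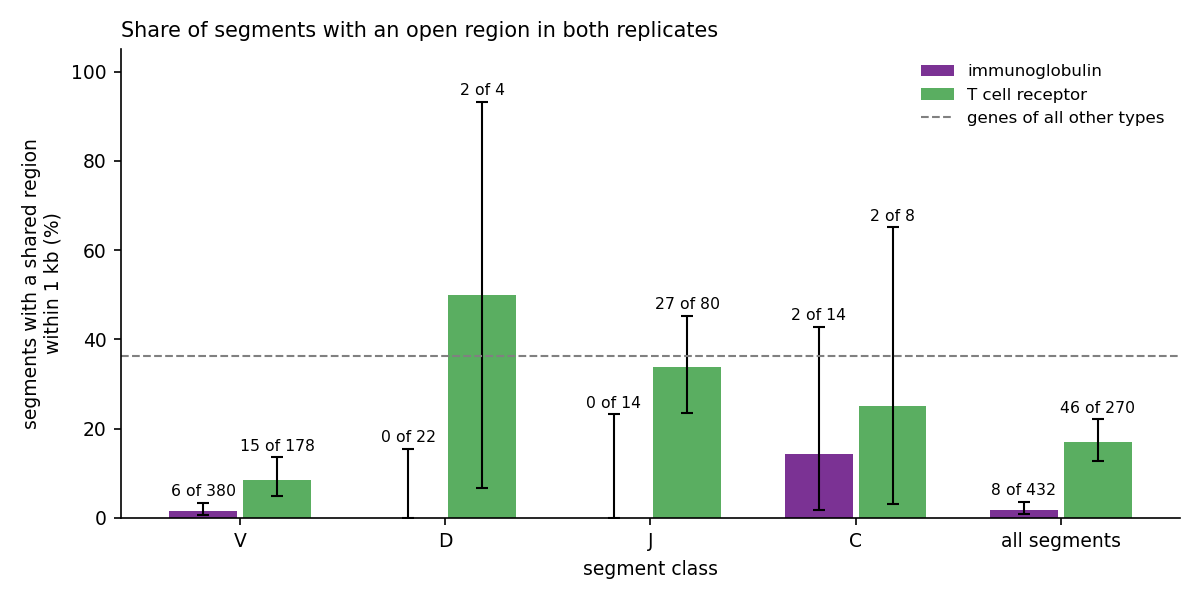
Percent of segments (y axis) with a shared open region within 1 kb, by segment class (x axis), for immunoglobulin and T cell receptor segments, with exact 95% intervals and counts above the bars. The dashed line is the 36.2% of genes of all other types, and the immunoglobulin bars for D and J segments are at 0.

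Repeated sequence can hide a region, since reads that match several places may be dropped on alignment. The share of 50-base words starting within 1 kb of a segment that occur once in the genome was therefore counted. Its median was 87.0% over the immunoglobulin segments and 92.8% over the T cell receptor segments. Of the 196 immunoglobulin segments with at least 90% such words 6 had a shared region, against 44 of the 146 T cell receptor segments above the same limit. Immunoglobulin V segments had a median of 86.4% and T cell receptor V segments one of 62.7%, with 6 of 380 and 15 of 178 in shared regions. The alpha chain V segments among the latter had a median of 35.75%. Among the immunoglobulin classes the D segments were the least unique, with a median of 66.8%, and the 14 C segments had between 95% and 100%.

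By position, the heavy chain locus with 20 kb on each side held 12 shared regions, or 4.29 per Mb, against 15.7 per Mb on the rest of chromosome 12, a ratio of 0.273. In replicate 1 alone the ratio was 0.349 and in replicate 2 alone 0.289. The kappa locus held 3 shared regions, or 0.934 per Mb, against 17.2 per Mb on the rest of chromosome 6, a ratio of 0.0544 (0.0466 in replicate 1 and 0.0514 in replicate 2). The lambda locus held 0, against 17.1 per Mb on the rest of chromosome 16. In the 0.239 Mb of that locus a count of 0 allows up to 12.5 per Mb, or 0.734 times the density of the rest, so a lower density was hardly detectable there. Per length of unique 50-base words, an alternative chosen after seeing the data, the ratios were 0.320 for heavy and 0.0678 for kappa. Against intergenic sequence alone they were 0.431 and 0.0869, and with flanks of 100 kb 0.454 and 0.225. Unique words made up 74.9% of the heavy, 72.3% of the kappa and 74.9% of the lambda locus, against 87.7%, 90.2% and 91.0% of the rest of their chromosomes.

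Chromosomes have other long stretches with few open regions, so each locus was set beside windows of its own length. The kappa locus had 3 shared regions in 3.21 Mb, against a median of 57.5 in 44 other windows of chromosome 6, and 2 of those 44 had fewer. The heavy chain locus had 12 in 2.80 Mb, against a median of 35.5 in 40 windows of chromosome 12, and 10 of those 40 had fewer. The lambda locus had 0, as had 177 of 394 windows of chromosome 16. The kappa locus was thus low among its windows, and the heavy and lambda loci were within a range that many windows shared.

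**Figure D2:**
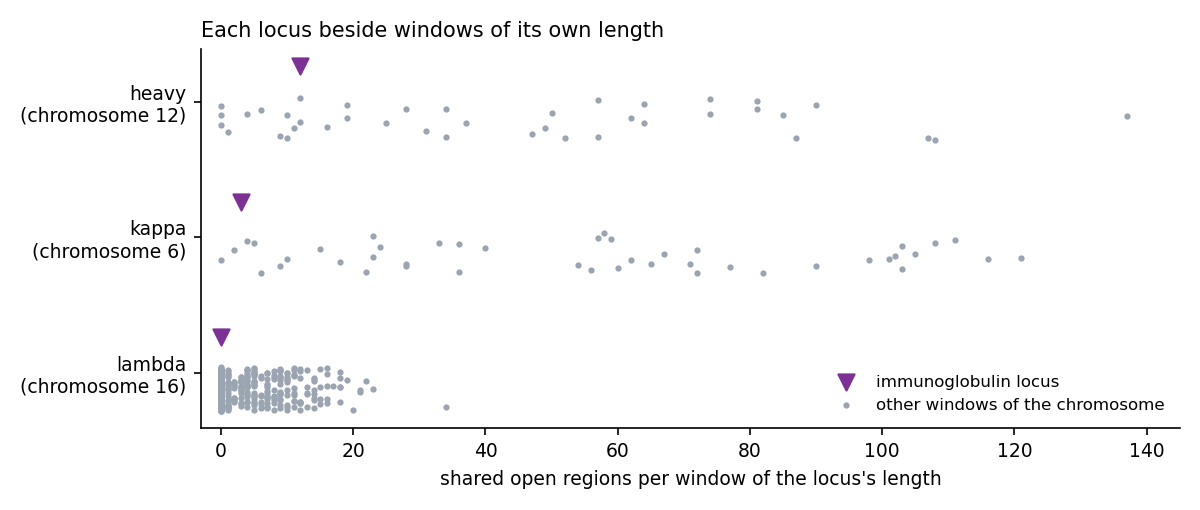
Number of shared open regions (x axis) in each immunoglobulin locus with its flanks (triangles) and in the other windows of the same length along its chromosome (grey points, spread vertically for legibility). The triangles stand at 12 for heavy, 3 for kappa and 0 for lambda.

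The regions of the loci were also set beside all regions by their agreement and strength. Of the 21 regions of replicate 1 in the loci 71.4% were shared, against 86.7% of all its regions, and of the 22 of replicate 2 68.2%, against 73.5%. Median fold enrichment in the loci was 4.36 in replicate 1 and 4.81 in replicate 2, against 5.58 and 5.65 over all regions of those lists. Among shared regions, the median of the mean of both replicates was 5.43 in the loci (n = 15), against 6.61 over all 44058, and 7 of the 15 lay above that overall median. These differences were not tested, since regions of 1 library are not replicates. The 6 regions of replicate 1 alone and the 7 of replicate 2 alone had median folds of 3.10 and 3.84.

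Within the heavy chain locus, the V part (2.44 Mb) held 8 shared regions, the D part (97.5 kb) 1, the J part (1.32 kb) 0 and the C part (168 kb) 1, and the intron between the C and J parts held 2. The 6 regions at V segments had a median mean fold of 8.39 (range 3.80 to 14.9), the 2 intergenic ones of the V part 3.97 and 8.02, and the other 4 of the locus a median of 4.93, against 6.60 over 1794 shared regions on the rest of the chromosome. The 3 strongest were at Ighv1-47, Ighv1-58 and Ighv8-4.

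Ighv1-47 (chr12:114991108-114991580, minus strand) had the strongest region of all the loci. Its region, chr12:114990837-114991599, covers the whole segment and had a fold enrichment of 14.5 in replicate 1 and 15.3 in replicate 2, above 98.0% and 97.0% of the regions of those lists. The pileup at the summit, the count that returns the deposited fold and p-value under a Poisson model, was 79 and 110. Of the 50-base words within 1 kb of Ighv1-47, 99.7% were unique.

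Ighv1-58 (chr12:115312166-115312599) stood next, with fold enrichments of 10.8 in both replicates and pileups of 41 and 47. Around it 74.5% of the words were unique, although within its region, chr12:115312000-115312464, 96.9% were. Ighv8-4 (chr12:115024026-115024459) had 7.66 in replicate 1 and 10.3 in replicate 2, and all words around it were unique. Ighv14-2 (chr12:113994469-113994898) had 7.44 and 8.13. These regions were above the median fold of their lists in both replicates.

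The remaining V segments with a shared region were weaker. Ighv1-12 (chr12:114615850-114616318) had 4.36 in replicate 1 and 4.52 in replicate 2. Ighv14-3 (chr12:114059845-114060321) had 3.08 and 4.52, with a pileup of 11 in replicate 1. Both lay below the median of their lists.

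By family, 3 of the 93 Ighv1 segments, 2 of the 4 Ighv14 segments and 1 of the 16 Ighv8 segments had a shared region, and the other families had none. From the D segments outward, 2 of 75, 3 of 72 and 1 of 49 V segments had one in successive equal parts of the V part. The stretch with the most V part regions of either replicate within 100 kb was chr12:114990837-115055422, 64.6 kb long. It was picked for its count among the 15 V part regions, and held 5 of them and 3 of the 8 shared ones. Its shared regions were those of Ighv1-47 and Ighv8-4 and an intergenic one at chr12:115034457-115035066, 3.16 kb from the pseudogene Ighv1-48, with folds of 4.10 and 3.84. The other intergenic region of the V part, chr12:114378554-114379944, lay 11.6 kb from Ighv12-3. Of the 15 shared regions it differed most between replicates, with 5.64 in replicate 1 and 10.4 in replicate 2. It also had the lowest share of unique 50-base words of the 15, at 76.75%.

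**Figure D3:**
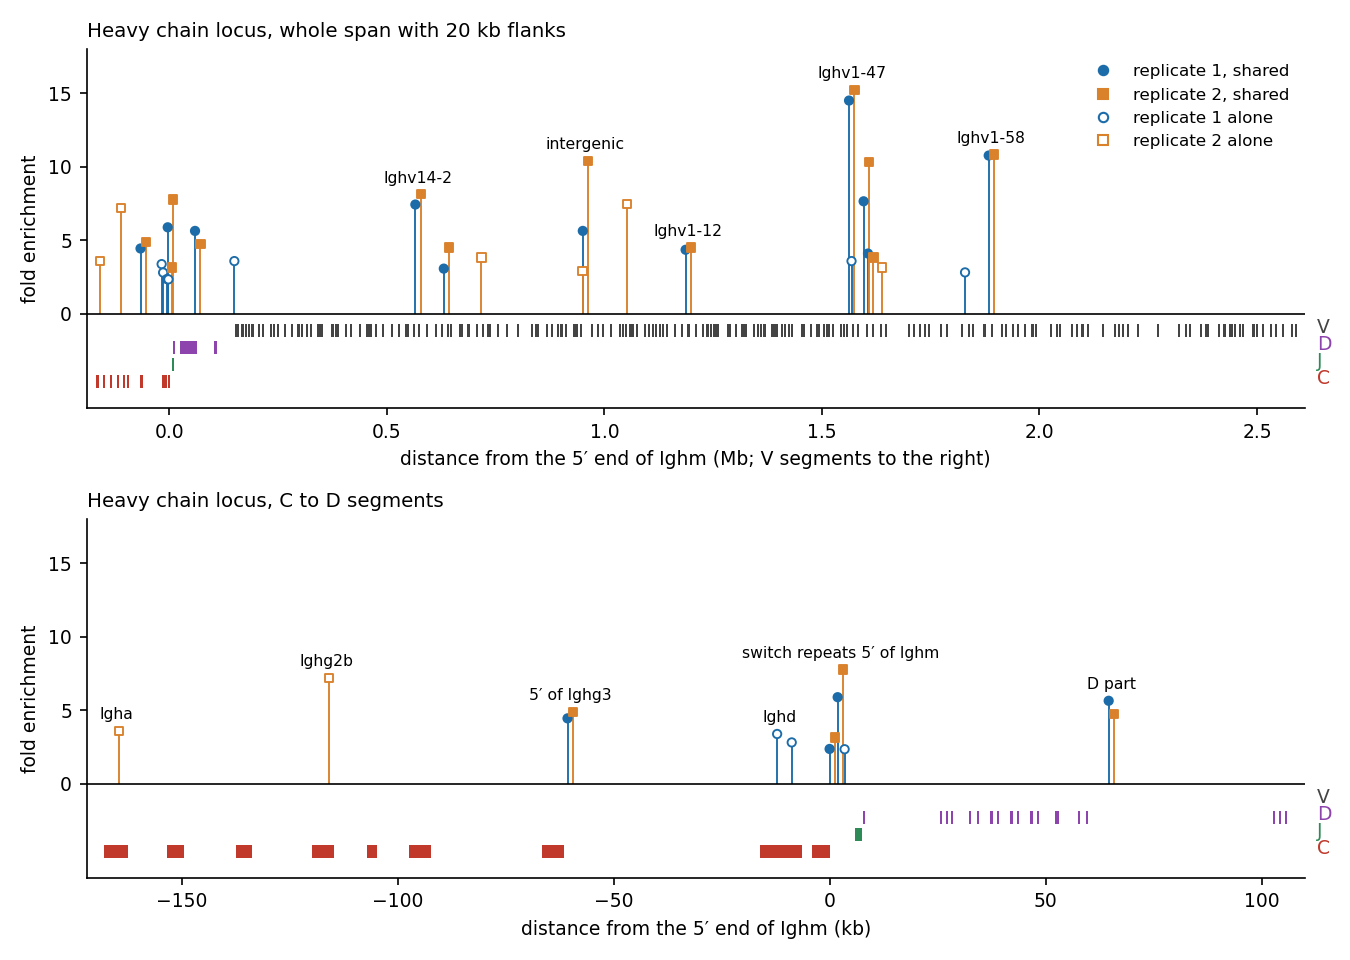
Fold enrichment (y axis) of each open region in the heavy chain locus against distance from the 5′ end of Ighm (x axis, Mb above and kb below). Filled symbols are shared regions and open symbols regions of 1 replicate; the replicates' symbols are drawn beside each other for legibility, and ticks under the axis are V, D, J and C segments. Ighv1-47 stands highest, at 14.5 and 15.3, and the 0.718 Mb at the right end, with 43 V segments, holds no region.

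At V segments most summits lay close to the 3′ end of the segment, where the recombination signal starts. In replicate 2, summits lay −2, 36, 62, 64 and 128 bp past the 3′ end at Ighv1-47, Ighv1-58, Ighv1-12, Ighv14-2 and Ighv14-3. In replicate 1 the distance was −54, 19, 432, 82 and 0 bp at the same segments. At Ighv8-4 the summits lay on the promoter side, 193 and 321 bp upstream of the 5′ end. With the regions of either list near a V segment, 6 of 8 in replicate 1 and 8 of 9 in replicate 2 had a summit within 250 bp of the 3′ end, a distance chosen after the values were seen. At T cell receptor V segments the same held for 3 of 18 and 6 of 21, and the median summit there lay at −787 and −677 bp, before the 3′ end and on the promoter side. Median positions for the immunoglobulin segments were 50.5 and 36 bp past it.

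**Figure D4:**
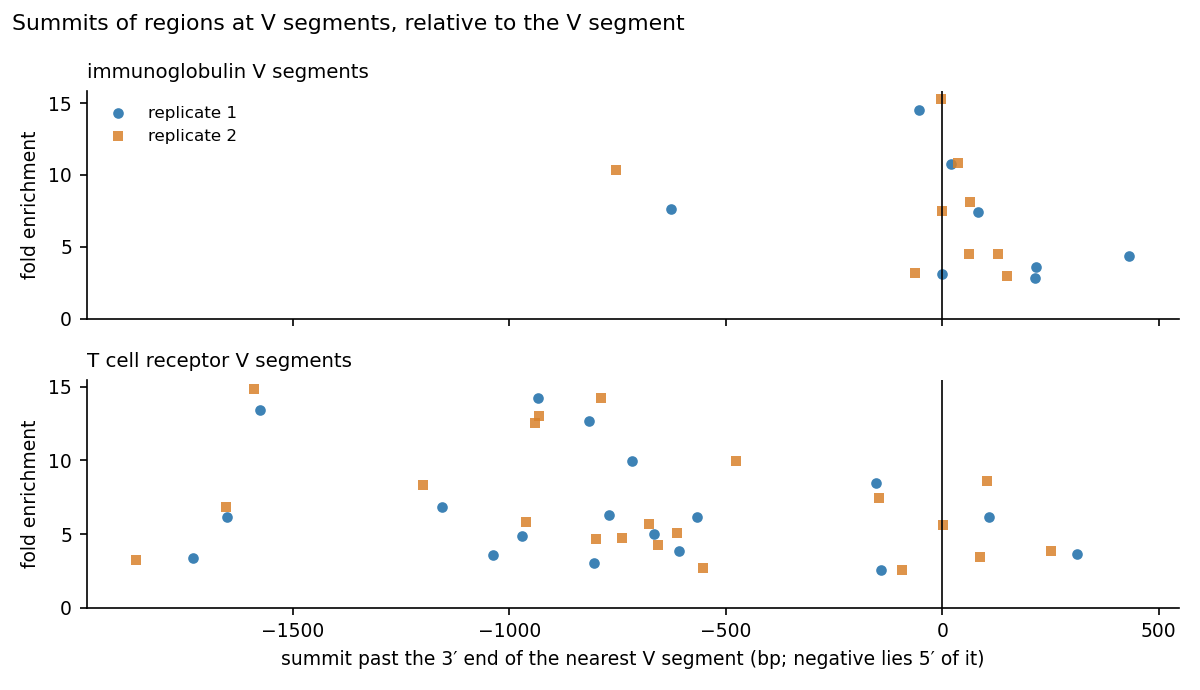
Fold enrichment (y axis) of regions within 1 kb of a V segment against the distance of the summit from the 3′ end of that segment (x axis, bp), for immunoglobulin V segments above and T cell receptor V segments below; each point is 1 region of 1 replicate. Most immunoglobulin summits lie near the line at 0, apart from the Ighv8-4 points at the left and the replicate 1 point of Ighv1-12 at 432 bp, and T cell receptor summits lie mostly to its left.

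The heptamer CACAGTG, searched on both strands within 100 bp of either replicate's summit, was found in 7 of the 15 shared regions of the loci (46.7%), against 7.96% of all shared regions. It was at Ighv14-2, Ighv14-3, Ighv1-12, Ighv1-47 and Ighv1-58 and at 2 intergenic regions. Since the signal flanks every functional V segment, its presence at a V segment's end is what the position of these regions brings with it. The nonamer ACAAAAACC was found in 0 of 15, against 0.368%. The Runx core TGTGGT was found in 6 of 15, against 21.7%, and 5 of those 6 were the same V segments, where it lay in the signal's spacer. Of the 108 heavy chain V segments with the heptamer within 15 bp of their end, 56 (51.9%) had ACCACA within 45 bp, and all 5 with a shared region were among these 56, a count made after those 5 sequences were seen. The octamer ATGCAAAT of V promoters stood within 250 bp upstream of all 6 V segments with a shared region and of 90 of the 115 heavy chain V segments that are not pseudogenes, against 1.60% of the promoters of RefSeq genes. It was in 0 of 15 summit windows, against 1.39% of all shared regions. Of the other patterns searched, PU.1 (GAGGAA) was in 7 of 15, against 25.0% of all shared regions, and the E-box CAGGTG in 5 of 15, against 17.3%. AP-1 (TGANTCA) was in 3, against 24.1%, the GATA factor pattern AGATAA in 2, against 11.3%, ETS (GGAAGT) in 1, against 25.3%, and the E-box CAGCTG in 0, against 14.4%. Matches describe these letters only and say nothing of binding.

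The intron between Ighj4 and Ighm is 5.78 kb long and holds the heavy chain intron enhancer and the switch repeats of Ighm. The shared region chr12:113424364-113426034, 1.63 kb 5′ of Ighm, was the widest of the loci at 1671 bp and had a fold of 5.89 in replicate 1 and 7.78 in replicate 2, with pileups of 52 and 74. It held 153 copies of GAGCT on either strand, or 91.6 per kb, more than any other of the 44058 shared regions. Of its length 56.1% was repeat-masked and 77.9% of its 50-base words were unique; whether reads of other repeats contribute was not tested. A weaker shared region lay 483 bp 5′ of Ighm, chr12:113423213-113423456, with 2.37 and 3.16, and made Ighm a member with a region within 1 kb. It was the farthest inside the limit of 1 kb, and the nearest outside it was the region 1.23 kb 5′ of Ighg3.

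The octamer of the intron enhancer (chr12:113427424-113427431) lay 1.39 kb from the nearest shared region. It was 479 bp from a region of replicate 1 alone, chr12:113426673-113426945, whose fold was 2.35. Of the 3 matches to the E-box CAGGTG in this intron on either strand, the one beside the octamer and another lay outside every region, and the one at chr12:113426745-113426750 lay inside that region of replicate 1. The shared regions of this intron were thus at the switch repeats and next to Ighm, and covered neither the octamer nor an E-box match.

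Of the other constant genes of the heavy chain, Ighg3 alone had a shared region nearby, and Ighg2b, Igha and Ighd had regions in 1 replicate alone. The region lay 1.23 kb 5′ of Ighg3 (chr12:113362459-113362867), with folds of 4.45 and 4.87. Ighg2b had a region in replicate 2 alone, with 7.18, and Igha another in replicate 2 alone, with 3.61. Ighd had 2 regions in replicate 1 alone, with 3.39 and 2.81. Ighg1 and Ighe, the genes to which B cells switch under Il4, had no region within 1 kb in either replicate, with 99.5% and 98.2% unique words around them. The same held for Ighg2c and the C pseudogene Gm37944, with 96.6% and 99.6%. The D part held the shared region chr12:113487687-113488188, with 5.64 and 4.74, which is 5.50 kb from Ighd1-1 and 1.58 kb from the start of Adam6b, a gene of the testis within the locus.

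Of the V segments with a region in 1 replicate alone, the pseudogene Ighv1-2 had the strongest, in replicate 2, with a fold of 7.45, above the median of that list. That region also overlaps another annotated gene, Mir7094-1. The regions at the other V segments lay below the median of their lists. In replicate 2 Ighv12-3 had 2.94 and Ighv1-49 had 3.16. In replicate 1 Ighv5-2 had 3.59 and the pseudogene Ighv8-7 had 2.82. The longest stretches of the heavy chain locus with no region of either replicate were 718, 416 and 375 kb long and held 43, 44 and 38 V segments.

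In the kappa locus all regions lay within the last part, from Igkv3-1 to Igkc. The 3.17 Mb before them, chr6:67535790-70709387, held all 176 kappa V segments and no region of either replicate. It was the third longest of the 3825 stretches without a region between regions of chromosome 6, behind 3.53 and 3.51 Mb with no immunoglobulin segment. Of the kappa V segments 102 are not pseudogenes, and 69 of the 176 had at least 90% unique words.

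The interval between V and J segments, background to which are elements bound by the insulator protein CTCF that restrain joining to the nearest V segments, held 2 shared regions. At chr6:70709388-70710111, 5.21 kb 3′ of Igkv3-1, the fold was 6.45 in replicate 1 and 8.09 in replicate 2. At chr6:70714339-70714557, 8.01 kb 5′ of Igkj1, it was 5.42 and 5.45. All 50-base words in both regions were unique. The CTCF pattern without mismatch was in 1 of the 15 shared regions of the loci, that of Ighv1-12, against 8.46% of all shared regions. With up to 1 mismatch, chosen after seeing the data, it was in 6 of 15, against 28.2%. These were both regions of the interval, that of the kappa intron, and those at Ighv1-12, 5′ of Ighg3 and in the D part.

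The intron between Igkj5 and Igkc is 2.51 kb long and holds the kappa intron enhancer. Its shared region, chr6:70725744-70726326, ends 109 bp before Igkc (chr6:70726435-70726966) and had a fold of 4.08 in replicate 1 and 4.07 in replicate 2, with pileups of 15 and 17. The summits lay 367 bp apart, at 70726182 and 70725815. The kappa B site of the intron (chr6:70725756-70725764) and its E-box lay inside the merged region, 59 bp before and 8 bp past replicate 2's summit. Replicate 1's region spanned the whole merged region and covered both, with its summit past both. Replicate 2's region, chr6:70725773-70725941, covered the E-box but not the kappa B site. GGACTTTCC was in 2 of the 15 shared regions, that of the kappa intron and that 5′ of Ighg3, against 0.443% of all shared regions. Replicate 2 alone had a further region 449 bp from Igkj5 and within 1 kb of Igkj4, with a fold of 4.07.

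**Figure D5:**
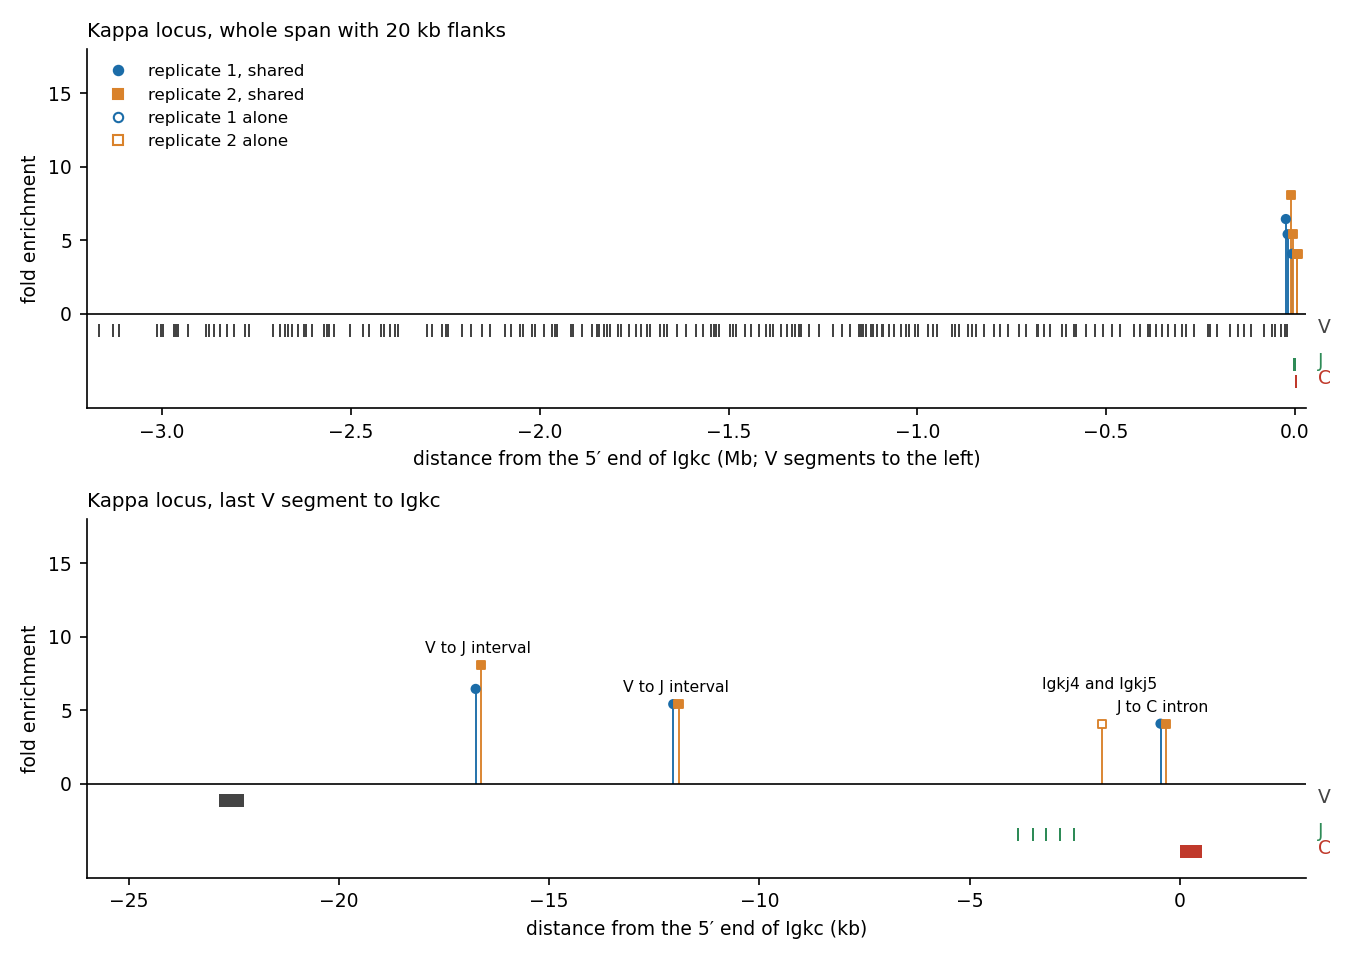
Fold enrichment (y axis) of each open region in the kappa locus against distance from the 5′ end of Igkc (x axis, Mb above and kb below), with symbols as in the map of the heavy chain locus and V, J and C segments under the axis. All regions stand at the right end of the upper panel, 3 of them shared, and none stands over the 176 V segments.

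The lambda locus had no region in either replicate, and the region-free stretch around it ran for 757 kb, chr16:19003138-19760006. Its 3 V, 5 J and 4 C segments had a median of 96.7% unique words. The nearest region before it was in replicate 1 alone, 58.5 kb from Iglc1, with a fold of 3.33.

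Beyond the 20 kb flanks there were further regions. On the side of Igha, where the 3′ enhancers and CTCF-bound sites of the locus are known, the flank held no region. Beyond it, replicate 1 had a region 21.6 kb from Igha with 3.59, and shared regions lay 31.8, 34.1 and 36.6 kb from Igha, with folds from 3.77 to 6.70 in replicate 1 and from 4.69 to 5.86 in replicate 2. On the other side the nearest shared region was 37.2 kb from Ighv1-86, with 13.6 and 14.4. Next to the kappa locus, a shared region with 3.50 and 2.81 lay 19.7 kb from Igkv2-137, with its centre just outside the flank. On the side of Igkc the nearest was 64.0 kb away, with 11.5 and 14.1.

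Marker genes were checked at their 5′ ends in the same shared regions. The share over all protein-coding genes was 55.9%. Th2 markers had one in 5 of 6 cases, with Ccr4 as the exception, and T cell markers in 6 of 8, with Cd28 and Trac as exceptions. Of 12 B cell markers 3 had one, Cr2, Ebf1 and Vpreb1. Blk, Cd22, Cd79a, Cd79b, Fcer2a, Igll1, Ms4a1, Pax5 and Vpreb3 had none. Of 5 plasma cell markers 4 had one, Irf4, Prdm1, Sdc1 and Xbp1, and Jchain had none. Myeloid markers had 0 of 5 and CD8 and natural killer cell markers 1 of 5. The part of other cells in the open immunoglobulin segments was not tested.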

How the data were processed

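ATAC-seq of 2 Th2 replicates was deposited as 1 list of regions per library, derived by the authors from 1 alignment on mm10, per the file headers. No source used here states the aligner, the peak caller, their versions or any shift for the transposase. The deposited fold enrichment is a ratio at the summit over local background; the −log10 p-value, −log10 q-value and score are the authors' own, and the score was not used.

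Regions on 21 main chromosomes were shared when they overlapped by at least 1 bp. A region belonged to a locus by its centre, with 20 kb flanks, and to a segment within 1 kb. Genes were GENCODE M21, with sequence from GRCm38.p6 and promoters from the RefSeq table of that build. Motifs were searched in 200 bp at each replicate's summit. Unique words were counted on both strands of the primary assembly. Pileups assumed a Poisson model with a pseudocount of 1, to within 0.001 of −log10 p. Depth is unknown, and intervals (95%, Clopper-Pearson) and limits from a count of 0 (3 counts) cover counting error only. The 1 group allowed no test. Named were all D, J and C segments with a region, V segments with a shared region, the 12 strongest shared and 3 strongest unshared regions per locus and the longest empty stretches. Ighv1-49, Ighv12-3 and Ighv8-7 were named beyond this rule, after their values were seen. Members and lists were chosen with earlier results of these data known. One marker gene is not reported here. Helpers were tested on simulated data. Python 3.11.15, pandas 2.3.3, scipy 1.17.1 and numba 0.67.0 were used.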

Additional observations from a re-analysis of the deposited data

How the results depend on the processing

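Of 75 alternative values, 48 stayed within 1.5 times the count or within 1 SD between replicates, and no setting gave an immunoglobulin locus a density above the rest of its chromosome. The 48 include all 7 alternative counts and all 9 alternative density ratios of the lambda locus, which stayed at 0. With no region there in either replicate, only the flanks of 100 kb could have moved them. V segments with a shared region numbered 4 to 9. With only regions of −log10 q of at least 10, the heavy chain locus kept 5 shared regions, D, J and C segments 0, the heavy and kappa density ratios were 0.179 and 0.0599, and the median fold was 7.79, against 8.64 over all such regions. With reciprocal overlap of at least 50%, 1 D, J or C segment counted, the kappa ratio was 0.0413 and the median fold 6.83. Leaving out a replicate gave ratios of 0.289 to 0.349 for heavy and 0.0466 to 0.0514 for kappa, a median fold of 4.36 to 4.81 and 3 to 6 D, J and C segments. With 100 kb flanks, the counts were 21 (heavy) and 13 (kappa), the ratios 0.454 and 0.225 and the median fold 5.74. Against intergenic sequence alone the ratios were 0.431 and 0.0869, and per unique length, added after seeing the data, 0.320 and 0.0678. Of D, J and C segments 0 overlapped a shared region themselves and 13 lay within 5 kb of one. The median percentile of fold was 48.2, against 59.0 over all shared regions, and the median −log10 p 14.1, against 24.2. The CTCF pattern with up to 1 mismatch, added after seeing the data, was in 6 regions in place of 1. The cause of these moves was not tested. No paired analysis was possible because there is 1 group. Unknown depth limits every absence: a segment without a region may be open below the authors' threshold, and repeated sequence, an unrearranged reference and an unexplained masking step limit what the lists can hold.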
